A study of Bos taurus with 30 samples.

Results

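Levels of RNA transcripts in the cervix 24 h after removal of a progesterone device were compared with those of the luteal phase. The rule takes all libraries whose stage label is 24hrPostCIDR (6 heifers, here CIDR+24h) or Luteal (5 heifers), 11 of the 30 libraries of the series, and all transcripts. Each library is polyadenylated RNA from cervical tissue of 1 Limousin heifer, taken at slaughter. Heifers of every stage had their cycles synchronised in the same way, with a controlled internal drug release (CIDR) device holding 1.94 g progesterone that stayed in the vagina for 8 days, and with 0.5 mg of the prostaglandin F2α analogue Estrumate given 1 day ahead of removal. The CIDR+24h heifers were sampled 24 h after removal and the Luteal heifers on day 7 after the onset of oestrus, so the Luteal heifers had received the device and the analogue too. The other 19 libraries, at 12 h after removal (CIDR+12h, n = 6), at oestrus onset (Oestrus, n = 4), and 12 h (Oestrus+12h, n = 4) and 48 h (Oestrus+48h, n = 5) after it, entered the model of the spread between heifers and are shown for reference. These numbers follow the sample labels, while in the protocol the sizes of the last 2 groups are the other way round (5 at Oestrus+12h, 4 at Oestrus+48h), so values of these 2 stages rest on the labels being right. Ages, and the part or layer of the cervix, are not given in the sources used here.

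In the luteal phase the corpus luteum keeps progesterone high, and the cervix is closed by a thick mucus. Taking away both the device and the corpus luteum lets progesterone fall while oestradiol from the growing follicle rises, and around oestrus the cervix is known to soften and to secrete a thin, abundant mucus. The comparison therefore sets tissue after progesterone withdrawal beside tissue under the ovary's own progesterone. No hormone was measured in these files. In whole tissue, fewer cells of a type and less RNA per cell cannot be told apart.

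The deposited files hold Ensembl bovine transcript IDs without gene names, and the RefSeq gene table used here matched 0 of them. Genes, pathways and marker genes of cervical cell types are therefore not named, and the tissue label was not checked against markers. Of the transcripts, 2 IDs on the higher side and 2 on the lower side are named, those with the smallest p among transcripts averaging 5 CPM (counts scaled to library size) or more over the 11 heifers. All others are given as counts and ranges.

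Library totals ran from 6227383 to 8990002 counts at CIDR+24h and from 7940251 to 9061166 at Luteal. The mean was 7322750 ± 914866 counts (SD, n = 6) against 8410610 ± 498808 (n = 5), with an exact two-sided permutation p of 0.0519 over 462 splits and an adjusted p of 0.208 over 4 library measures. The other 3 measures, which were the number of transcripts with a count, the share of the 10 most abundant transcripts and the scaling factor, had exact permutation p-values from 0.673 to 0.734. CIDR+24h replicate 4 stood apart from the other 10 heifers. In 58 transcripts its level was at least 5 CPM and at least 8-fold above each of them, against 0 to 10 such transcripts in any other of the 11, and its 10 most abundant transcripts took 23.6% of its counts, where the next highest of the 11 was a Luteal heifer at 19.3%. Its stage label was kept, and several of the counts of transcripts are also given without it.

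No transcript was called different between the stages. The test was edgeR's quasi-likelihood test, with Benjamini-Hochberg adjusted p under 0.05 as the threshold. It called 0 of 16940 transcripts (0%), and the smallest adjusted p was 0.226, shared by 65 transcripts. An unadjusted p under 0.05 was found for 2261 transcripts (13.3%), of which 1179 were higher (6.96%) and 1082 were lower (6.39%) at CIDR+24h. The median log2 fold change over all tested transcripts was 0.01, which the scaling sets near 0. With size factors of the kind DESeq2 uses, 1283 were higher and 994 were lower at that p. limma's voom fits called 0 transcripts with and without sample weights, with 3750 and 1849 at an unadjusted p under 0.05. DESeq2 called 111, which are described further on.

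The data bounded many of the differences. For 8189 transcripts (48.3%), the whole 95% interval of the log2 fold change, not adjusted for the number of transcripts, lay within a 2-fold difference in either direction. This share differed with level, at 1.56% of the 642 transcripts under 1 CPM and 25.7% of the 5608 between 1 and 10 CPM, 63.8% of the 8839 between 10 and 100 CPM and 59.4% of the 1851 over 100 CPM. The median standard error of a log2 fold change was 0.33 over all transcripts, and 0.73 under 1 CPM. Among abundant transcripts over 100 CPM, 156 (8.43%) had an unadjusted p under 0.05, against 1379 (15.6%) between 10 and 100 CPM. The share was 11.9% between 1 and 10 CPM and 9.03% under 1 CPM.

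ENSBTAT00000007892 had the smallest p of all transcripts. Its level at CIDR+24h ranged from 61.5 to 88.8 CPM with a median of 71.9 CPM over 6 heifers, and the Luteal heifers had 50.1, 47.5, 38.9, 46.4 and 52.1 CPM. The lowest value after removal was thus above the highest Luteal one, and the means were 73.8 ± 12.2 CPM (SD, n = 6) and 47.0 ± 5.03 CPM (n = 5). The log2 fold change was 0.65 ± 0.132 (SE, edgeR adjusted p = 0.226), with a 95% interval from 0.38 to 0.92. At the other stages its medians were 59.6 CPM at CIDR+12h, 45.2 at Oestrus, 50.2 at Oestrus+12h and 56.3 at Oestrus+48h. The CIDR+24h heifers were thus the highest stage by median, with CIDR+12h next and overlapping it.

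ENSBTAT00000033340 was between 29.3 and 43.5 CPM at CIDR+24h, with a median of 34.3 CPM over 6 heifers, and at 18.8, 20.4, 18.4, 17.5 and 20.8 CPM in the Luteal heifers. The groups did not overlap, and the Luteal values lay close together, at 19.2 ± 1.41 CPM (SD, n = 5) against 34.9 ± 5.28 CPM (n = 6). The log2 fold change was 0.86 ± 0.19 (SE, edgeR adjusted p = 0.226), with a 95% interval from 0.48 to 1.25. In the other stages its medians lay between 25.3 CPM at CIDR+12h and 29.1 CPM at Oestrus, all above the highest Luteal heifer and below the CIDR+24h median. Luteal was thus the lowest stage by median and CIDR+24h the highest. Among the CIDR+12h heifers, replicate 3 was below the Luteal range at 14.9 CPM.

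On the lower side, ENSBTAT00000019052 was between 1.23 and 7.47 CPM at CIDR+24h, with a median of 1.74 CPM over 6 heifers. The Luteal heifers had 18.1, 6.27, 131, 17.5 and 2.19 CPM. The groups overlapped, since CIDR+24h replicate 2 (7.47 CPM) was above Luteal replicates 2 and 5, and CIDR+24h replicate 6 (2.30 CPM) was above Luteal replicate 5. The log2 fold change was -3.73 ± 0.799 (SE, edgeR adjusted p = 0.226), with a 95% interval from -5.37 to -2.09. Luteal replicate 3 set much of its size, and without that heifer it was -2.07 (adjusted p = 0.534). The medians at the other stages were between 4.66 CPM at Oestrus and 12.0 CPM at CIDR+12h, so CIDR+24h was the lowest stage by median.

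ENSBTAT00000034108 had the widest range of the named transcripts. It was between 1.70 and 24.8 CPM at CIDR+24h, with a median of 9.71 CPM over 6 heifers, and at 2472, 118, 77.9, 124 and 93.9 CPM in the Luteal heifers. The groups did not overlap, and the median was 12.2 times higher at Luteal. The log2 fold change was -5.67 ± 1.35 (SE, edgeR adjusted p = 0.226), with a 95% interval from -8.45 to -2.89. Without Luteal replicate 1, which had 2472 CPM from 22179 counts, it was -3.19 (adjusted p = 0.343).

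The same transcript differed widely between heifers at the other stages. At CIDR+12h it was between 13.8 and 923 CPM with a median of 275 CPM (n = 6), and at Oestrus between 5.84 and 105 CPM with a median of 7.31 CPM (n = 4). At Oestrus+12h, replicate 3 had 1057 CPM while the others were between 8.77 and 38.2 CPM. At Oestrus+48h the range was 6.95 to 55.7 CPM (n = 5). The low levels at CIDR+24h were thus shared by most Oestrus and Oestrus+48h heifers, and levels within the Luteal range by 4 of the 6 CIDR+12h heifers. These 4 were above every Luteal heifer except replicate 1, since the others had 77.9 to 124 CPM. By median the highest stage was CIDR+12h, above Luteal at 118 CPM. The lowest was Oestrus, below CIDR+24h at 9.71 CPM. All 4 named transcripts were picked for a small p, so their fold changes and intervals describe the extremes of the comparison.

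**Figure D1:**
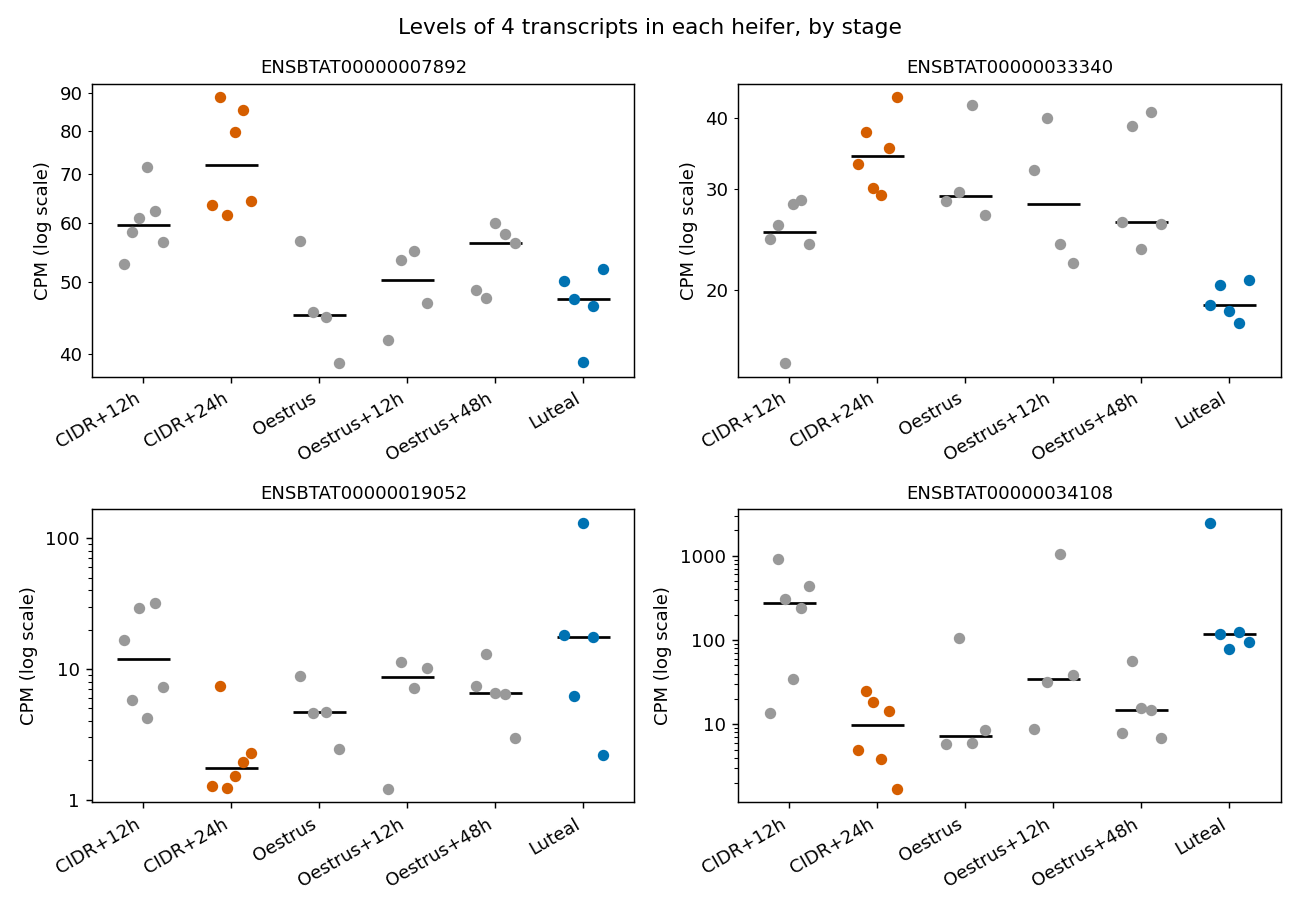
Levels of the 4 named transcripts (CPM, log axis) in each of the 30 heifers by stage, with CIDR+24h in orange, Luteal in blue, the other stages in grey and a bar at each stage's median. The CIDR+24h and Luteal points are fully separate for ENSBTAT00000007892, ENSBTAT00000033340 and ENSBTAT00000034108 and overlap for ENSBTAT00000019052.

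A count that needs no fitted spread was taken of transcripts whose stages did not overlap in CPM. There were 117 of 16940 (0.691%), 66 with every CIDR+24h heifer above every Luteal heifer (0.39%) and 51 with every CIDR+24h heifer below (0.301%). With size factors of the kind DESeq2 uses in place of TMM factors (trimmed mean of M values, edgeR's scaling), the split was 83 and 38. Differences in these transcripts were mostly modest. The 66 had a median log2 fold change of 0.72, with 17 of at least 2-fold and 2 of at least 4-fold, and the 51 had a median of -0.64, with 12 of at least 2-fold and 5 of at least 4-fold. Mean levels ran from 1.42 to 314 CPM in the 66 and from 0.663 to 269 CPM in the 51. Counts of the 117 were in no case identical to those of another tested transcript in all 30 heifers. The count was 159 without CIDR+24h replicate 4. A group with fewer heifers overlaps less easily. Leaving out CIDR+24h replicates 1, 2, 3, 5 and 6 in turn gave 410, 130, 199, 333 and 134. Leaving out Luteal replicates 1 to 5 in turn gave 256, 223, 182, 175 and 237.

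**Figure D2:**
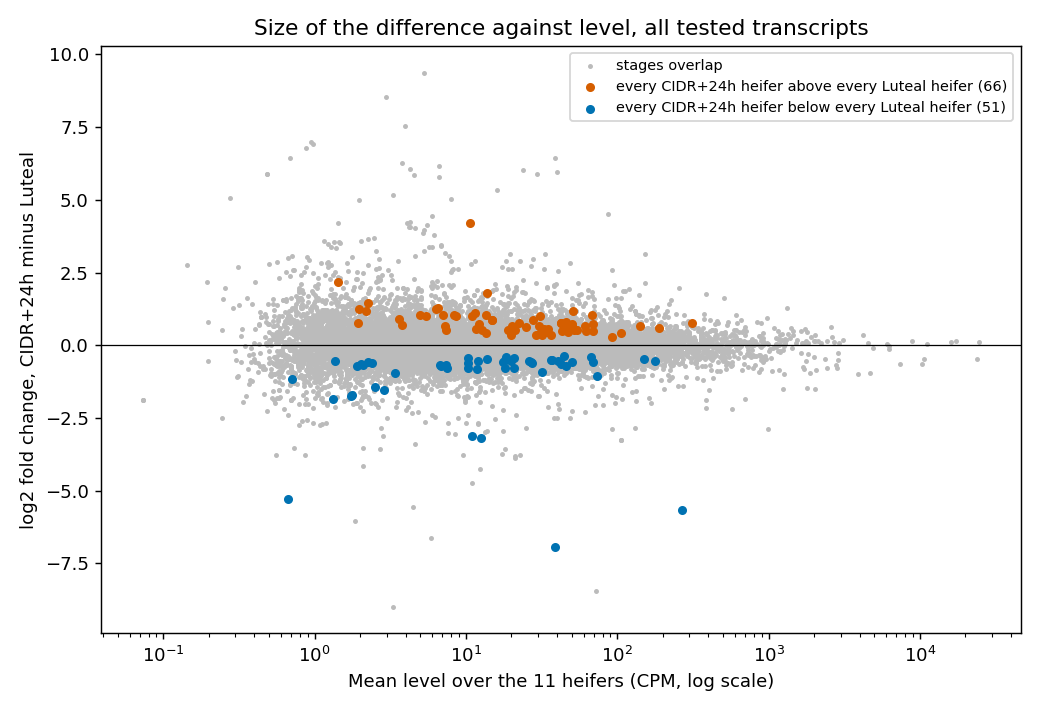
Log2 fold change (CIDR+24h minus Luteal) against mean level over the 11 heifers (CPM, log axis) for the 16940 tested transcripts, with the 66 and 51 transcripts whose stages do not overlap in orange and blue. Most coloured points lie within a 2-fold difference, while most of the largest fold changes are grey, in transcripts whose stages overlap.

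The remaining 19 heifers counted in the filter on low counts and in the scaling, but overlap was judged without them. With no such filter, 129 transcripts did not overlap, 74 higher and 55 lower at CIDR+24h. Levels of the 117 transcripts in the 19 heifers are a description. For each heifer, the median over a set of log2 CPM minus the Luteal mean was taken. For the 66, the CIDR+24h heifers lay between 0.39 and 0.98 and the Luteal heifers between -0.15 and 0.12. The medians of the 4 other stages lay between 0.14 (CIDR+12h) and 0.24 (Oestrus), above all Luteal heifers and below all CIDR+24h heifers. Single heifers reached into the CIDR+24h range, up to 0.58 at Oestrus+12h, 0.54 at Oestrus+48h, 0.53 at CIDR+12h and 0.49 at Oestrus. For the 51, CIDR+24h lay between -0.90 and -0.45 and Luteal between -0.10 and 0.07. Here Oestrus+48h, with a median of -0.46 and a range from -0.60 to -0.10, was the nearest to CIDR+24h, and CIDR+12h lay between -0.31 and -0.07. Over all tested transcripts the same medians lay between -0.03 and 0.06 in all 30 heifers.

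By stage means of single transcripts, 58 of the 66 were nearer to Luteal than to CIDR+24h at CIDR+12h, 45 at Oestrus, 50 at Oestrus+12h and 42 at Oestrus+48h. Of the 51, 43 were nearer to Luteal at CIDR+12h, 41 at Oestrus+12h, 27 at Oestrus and 24 at Oestrus+48h. Both ends of the comparison were chosen as extremes, so that other stages fall between them is partly set by the choice. The same shares over all tested transcripts are not given here, so nearness to Luteal may not be particular to these sets.

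**Figure D3:**
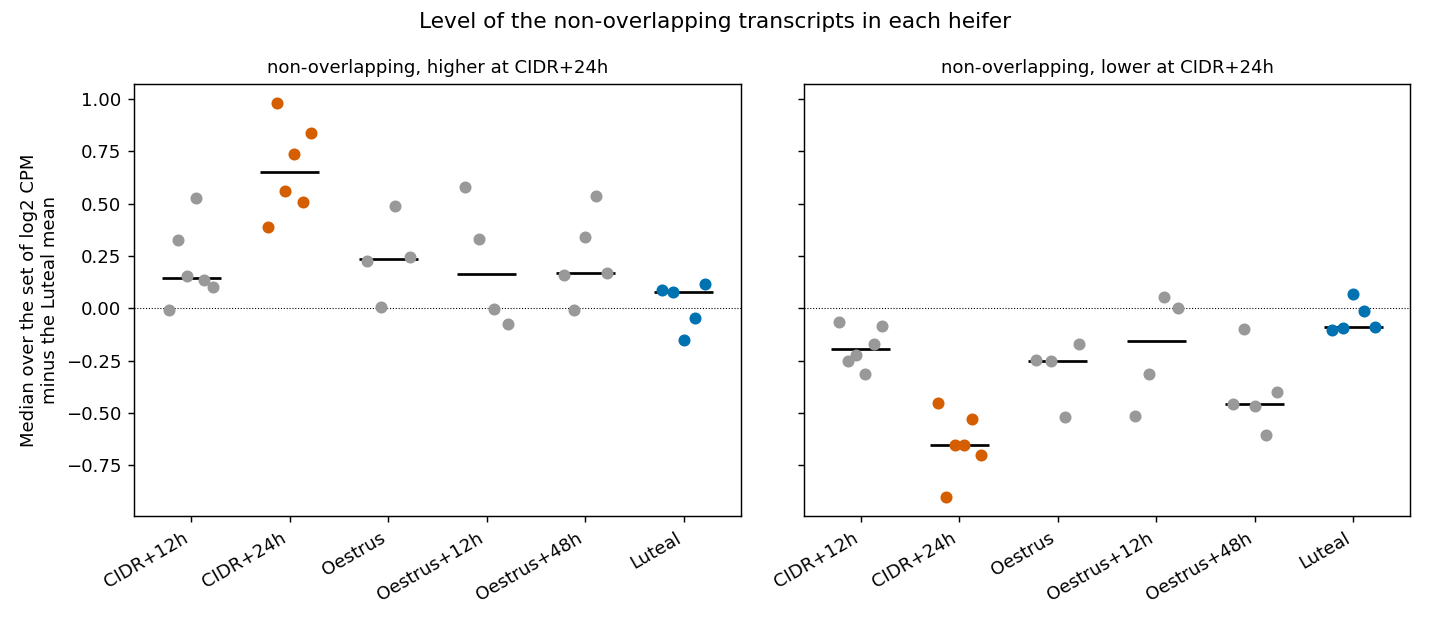
Median over the 66 (left) and 51 (right) non-overlapping transcripts of log2 CPM minus the Luteal mean, 1 point per heifer, with CIDR+24h in orange, Luteal in blue, the other stages in grey and a bar at each stage's median. CIDR+24h and Luteal are apart because the sets were chosen so, and the medians of the other 4 stages lie between the medians of these 2 in both panels.

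Large fold changes were mostly carried by 1 heifer. A log2 fold change of at least 2 (4-fold) towards CIDR+24h was fitted for 158 transcripts and towards Luteal for 93. In 2 and 5 of these the stages did not overlap, where the shares over all tested transcripts were 0.39% and 0.301%. Of the 251 in both directions, 43 averaged under 1 CPM and 132 between 1 and 10 CPM. In 114 of the 158 (72.2%), over 50% of the summed CPM of the CIDR+24h heifers came from 1 of the 6, and in 76 of the 93 (81.7%) over 50% of the Luteal sum came from 1 of the 5. The same share over all tested transcripts, or over those of like level, is not given here. The carrying heifer was CIDR+24h replicate 4 in 62 transcripts, replicate 2 in 28 and replicate 6 in 22, and at Luteal it was replicate 1 in 49 and replicate 3 in 12. Without CIDR+24h replicate 4 the 2 counts were 122 and 137, and without Luteal replicate 1 they were 189 and 72. With both of these heifers left out they were 158 and 110, against 158 and 93 with all heifers. The number of 4-fold differences thus did not fall without the 2 main carriers. Without CIDR+24h replicate 5 they were 210 and 145, and without Luteal replicate 2 they were 220 and 138.

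The 4 larger sets carried by 1 heifer had different profiles over the series. They were chosen for a 4-fold difference between the stages and for the carrier's share, so low levels in the opposite stage and in the rest of the carrier's stage follow from the choice. The levels in the 19 heifers of other stages were not used in that choice, but they counted in the filter on low counts. A transcript high in only 1 of the heifers compared could pass that filter through its counts in other stages. High levels in other stages may therefore be partly set by the filter, and how far was not tested. The 62 transcripts carried by CIDR+24h replicate 4 were at a median of 19.8 CPM in that heifer, and at 0.399 to 0.545 CPM in the rest of its stage. Their medians were 3.22 to 19.6 CPM in the CIDR+12h heifers and at most 0.620 CPM in any Oestrus, Oestrus+12h or Oestrus+48h heifer. In 53 of the 62, every CIDR+12h heifer was above each of the other 10 heifers of the 2 stages compared. The closest median was that of CIDR+12h replicate 4, a different heifer whose number is only a name, and it was the highest of the other 29 heifers in 60 of the 62.

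CIDR+24h replicates 2 and 6 were each the second highest of the 11 heifers, by median, in the transcripts the other carried. The 28 transcripts carried by replicate 2 had a median of 28.1 CPM there, 11.1 CPM in replicate 6 and 0.325 to 2.05 CPM in the remaining 4 of the stage. The 22 carried by replicate 6 had a median of 37.4 CPM there, 5.99 CPM in replicate 2 and 0.204 to 0.566 CPM in the other 4. Outside the stage, Oestrus replicate 3 (8.62 and 5.14 CPM) and Oestrus+12h replicate 1 (6.50 and 4.39 CPM) had the next highest medians of both sets. Outside the 2 stages compared, the higher medians of these sets were thus in single heifers of Oestrus and Oestrus+12h.

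The 49 transcripts carried by Luteal replicate 1 had a median of 51.9 CPM there and 3.39 to 6.29 CPM in the rest of its stage. The CIDR+24h medians were 0.399 to 1.91 CPM. High medians also occurred at CIDR+12h replicate 2 (24.0 CPM), Oestrus+12h replicate 3 (20.4 CPM), CIDR+12h replicate 6 (17.2 CPM) and Oestrus replicate 2 (7.57 CPM). Among the 29 other heifers, Oestrus+12h replicate 3 was the highest in 19 of the 49 transcripts and CIDR+12h replicate 2 in 14. ENSBTAT00000034108 is 1 of the 49.

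The 2 stages were not separated on the main axes of variation between heifers. The first principal component of log2 CPM over the 11 heifers held 37.0% of the variance and the second 23.5%. On the first, CIDR+24h replicates 1, 2, 4 and 6 lay between -80.3 and -46.4 while CIDR+24h replicates 3 and 5 lay at 53.5 and 90.2, with the Luteal heifers between -23.0 and 71.8. The stage means on the first 3 components differed with exact two-sided permutation p-values of 0.245, 0.827 and 0.0368, and adjusted p-values over the 3 of 0.367, 0.827 and 0.11. On the third, the mean was 18.7 ± 30.6 at CIDR+24h (SD, n = 6) and -22.5 ± 15.9 at Luteal (n = 5), a difference that did not pass after adjustment. The spread of log2 CPM between heifers, as a median SD over transcripts, was 0.55 at CIDR+24h and 0.48 at Luteal, and it was larger at CIDR+24h in 9830 of the 16940 transcripts.

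**Figure D4:**
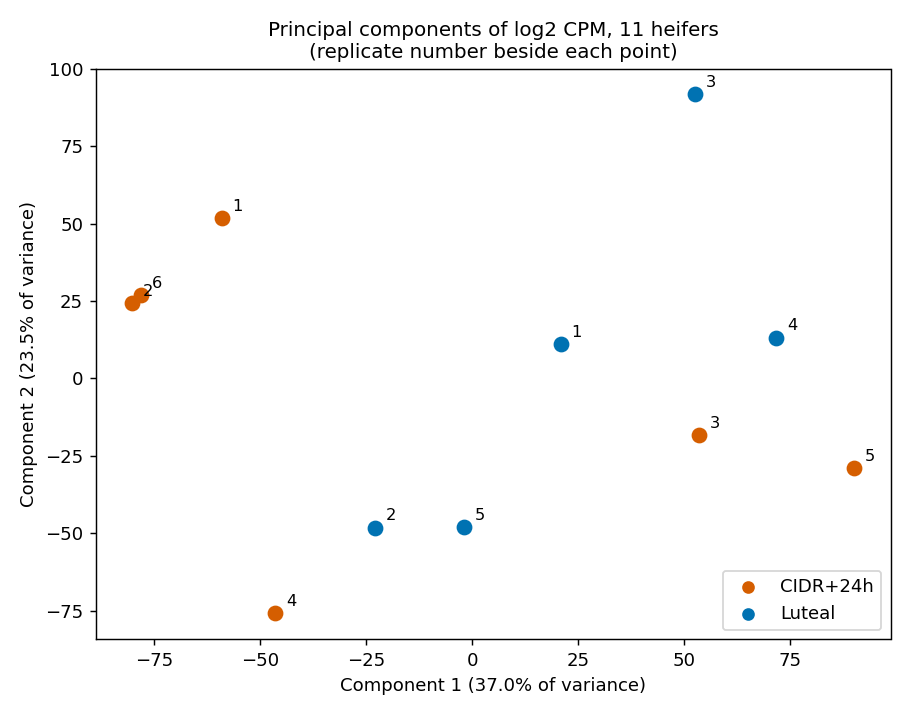
First 2 principal components of log2 CPM over the 11 heifers (37.0% and 23.5% of the variance), with CIDR+24h in orange, Luteal in blue and the replicate number beside each point. CIDR+24h replicates 3 and 5 lie on the right with Luteal replicates 3 and 4, and the other 4 CIDR+24h heifers lie on the left.

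Single heifers also moved the number of transcripts at an unadjusted p under 0.05. Among the 1179 on the higher side, CIDR+24h replicate 2 was the highest of its stage in 526, replicate 4 in 327 and replicate 6 in 193, while replicates 1, 3 and 5 led in 43, 37 and 53. Among the 1082 on the lower side, Luteal replicate 3 was the highest of its stage in 629. How often each heifer was the highest of its stage over all tested transcripts is not given here, so these counts may not be particular to the 2 lists. Without CIDR+24h replicate 2 the number fell from 2261 to 1307, and without Luteal replicate 3 to 1350. Omitting CIDR+24h replicate 4 gave 1709, and omitting replicate 5 of that stage gave 3097. edgeR called 0 transcripts in each of these 11 fits, and the smallest adjusted p in any was 0.117.

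**Figure D5:**
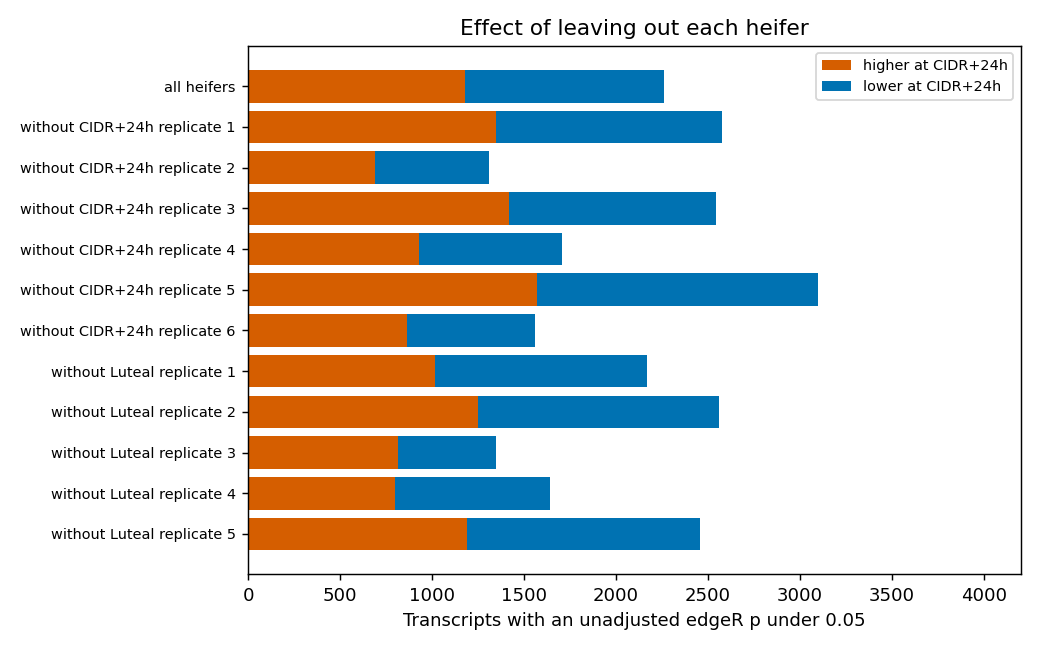
Number of transcripts with an unadjusted edgeR p under 0.05 (horizontal axis) with all heifers and without each of the 11 in turn, split into higher (orange) and lower (blue) at CIDR+24h. The total runs from 1307 without CIDR+24h replicate 2 to 3097 without CIDR+24h replicate 5.

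DESeq2, run as an alternative on the same counts, called 111 of 16931 transcripts (0.656%), 83 higher (0.49%) and 28 lower (0.165%) at CIDR+24h. All 111 had an unadjusted edgeR p under 0.05, against 13.3% of all tested transcripts. In 32 of the 111 the stages did not overlap, against 0.691% of all tested transcripts. The calls were made from the same values, so higher shares follow in part from the choice. In 34 of the 83 and 15 of the 28, over 50% of the summed CPM of the higher stage came from 1 heifer. All 4 named transcripts were among the calls, with DESeq2 adjusted p-values of 0.000534 for ENSBTAT00000007892, 0.00607 for ENSBTAT00000033340, 0.000602 for ENSBTAT00000019052 and 0.000534 for ENSBTAT00000034108. The log2 fold changes were 0.67, 0.88, -3.73 and -5.67, the same in direction as edgeR's and near them in size.

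The number of DESeq2 calls moved with single heifers. Leaving out 1 heifer gave 28 calls without CIDR+24h replicate 4, 42 without replicate 2, 32 without replicate 6, 39 without Luteal replicate 1, 30 without replicate 3 and 33 without replicate 4. The largest numbers were 280 without CIDR+24h replicate 1 and 337 without replicate 5. ENSBTAT00000007892 and ENSBTAT00000033340 were called by DESeq2 in each of the 11 omissions. ENSBTAT00000034108 was not called without Luteal replicate 1, nor ENSBTAT00000019052 without Luteal replicate 3.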

How the data were processed

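Each heifer's deposited file gives raw read counts for the same 28054 Ensembl transcript IDs. Single reads of polyadenylated RNA were made with Illumina's procedure, per the labels' protocols, and CASAVA 1.0 is named in the submitters' processing notes. The methods of alignment and counting, with build, annotation and strand setting, are not given in the sources used here, so isoforms, near-identical copies and antisense transcripts may share reads.

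Counts of all 30 heifers were filtered with filterByExpr by stage (minimum count 10, minimum total 15), leaving 16940 transcripts, scaled with TMM factors and fitted in edgeR 4.0.16 (R 4.3.3) with 1 mean per stage by robust quasi-likelihood. CIDR+24h minus Luteal was tested. Replicate numbers follow accession order and pair nothing. Pairs of libraries within a stage had chi-square values of at least 29.2 per degree of freedom, so none were near-duplicates. Log2 CPM for principal components and sets had a prior count of 2, and standard errors were derived from the F statistics. Totals of 6227383 to 9061166 counts limit the precision of low transcripts.

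The alternatives were other size factors, 2 filters, DESeq2 1.42.0, limma 3.58.1 voom with and without sample weights, a fit of these stages alone, a fit without the 3 heifers of other stages whose animal numbers have a 2-digit prefix, and omission of each heifer. Omitting CIDR+24h replicate 4 with Luteal replicate 1, and DESeq2 with each omission, were added after seeing the data. The comparison and lists were chosen with earlier results of these data known. Named transcripts are the 2 with the smallest p in each direction at a mean of at least 5 CPM. Gene lists and cell type markers could not be applied without gene names.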

Additional observations from a re-analysis of the deposited data

Results flagged for a closer look

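Chance was taken to give about 1 in 20 groups of heifers a highest or lowest heifer unusually far from the next. That rate was not checked for skewed levels or for transcripts picked from these data, so no excess is read from it. Of 44 groups examined, 7 had such a heifer. In the 2 stages compared these were ENSBTAT00000034108 in Luteal replicate 1, at 2472 CPM where the remaining 4 had 77.9 to 124 CPM, ENSBTAT00000019052 in Luteal replicate 3, at 131 CPM against 2.19 to 18.1 CPM, and ENSBTAT00000019052 in CIDR+24h replicate 2, at 7.47 CPM against 1.23 to 2.30 CPM. In the other stages, ENSBTAT00000034108 was at 1057 CPM in Oestrus+12h replicate 3 against 8.77 to 38.2 CPM, at 105 CPM in Oestrus replicate 2 against 5.84 to 8.60 CPM, and at 55.7 CPM in Oestrus+48h replicate 2 against 6.95 to 15.5 CPM. ENSBTAT00000033340 was at 14.9 CPM in CIDR+12h replicate 3 against 24.0 to 28.8 CPM. Of these values, 4 belong to ENSBTAT00000034108, so they are not separate signals.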

How the results depend on the processing

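edgeR called 0 transcripts under every setting tried, including other size factors, both filters, a fit of only the 2 stages and each omission of a heifer, and both voom fits called 0, while DESeq2 called 111. With DESeq2, leaving out CIDR+24h replicates 1 to 6 in turn gave 280, 42, 157, 28, 337 and 32 calls, and leaving out Luteal replicates 1 to 5 gave 39, 149, 30, 33 and 159. The number at an unadjusted p under 0.05 was 3750 with voom sample weights, and ran from 1307 to 3097 when 1 heifer was left out. The number of transcripts whose stages did not overlap ran from 130 to 410 when 1 heifer was left out, and was 319 without both CIDR+24h replicate 4 and Luteal replicate 1, where fewer heifers make overlap rarer by construction. With DESeq2 all 4 named transcripts passed, at log2 fold changes of 0.67 for ENSBTAT00000007892, 0.88 for ENSBTAT00000033340, -3.73 for ENSBTAT00000019052 and -5.67 for ENSBTAT00000034108. In all other settings with a test by edgeR or voom, none of the 4 passed and each kept its direction. Omissions of 1 heifer gave ranges of 0.59 to 0.70, 0.80 to 0.92, -4.39 to -2.07 and -6.06 to -3.19. The stricter filter removed ENSBTAT00000019052, which therefore has no value there. Why DESeq2 called transcripts where edgeR and voom did not was not tested. No paired analysis was possible because each library came from 1 heifer sampled at slaughter, and the replicate numbers pair nothing.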

Other observations

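No transcript had a count in all 6 CIDR+24h heifers and 0 in all 5 Luteal heifers, and none showed the reverse. A count in at least 1 CIDR+24h heifer with 0 in all Luteal heifers was found for 826 transcripts, with at most 831 counts summed over the stage. The reverse was found for 610 transcripts, with at most 325 counts. Presence in 1 stage alone was thus never shared by all its heifers.

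The 117 non-overlapping transcripts were also read in 2 stages that share no heifer with the comparison. The CIDR+12h mean lay above the Oestrus+48h mean in 23 of the 66 transcripts higher at CIDR+24h (34.8%) and in 41 of the 51 lower at CIDR+24h (80.4%), against 49.8% of all tested transcripts. This is a description of these libraries with no test.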
